A study of Danio rerio with 20 samples.

Results

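Cells labelled as retinal ganglion cells, the output neurons of the eye, were compared with cells that carried none of the reporters. The comparison used all libraries labelled as either group, 5 of retinal ganglion cells and 5 of progenitors, out of 20 libraries in the series. All came from zebrafish embryos of 1 triple transgenic line at 42 hours post fertilization (hpf), carrying Tg(ath5:gap-RFP) together with Tg(crx:gap-CFP) and, as the third reporter, Tg(ptf1a:gal4,UAS:gap-YFP). The embryos were kept at 28 °C to 24 hpf, at 21 °C to 30 hpf and again at 28 °C to 42 hpf, and MS-222 (0.01%) was given before dissection. For each replicate 25 retinas were pooled, and 500 cells per library were sorted by flow cytometry. Ganglion cells were those positive for the ath5 reporter and negative for the crx and ptf1a reporters, and progenitors were those negative for all of them. The ath5 reporter is driven by regulatory sequence of the gene now called atoh7. A photoreceptor group (ath5 and crx reporters on) and an amacrine and horizontal cell group (ath5 and ptf1a reporters on), 5 libraries each, gave reference levels and entered the same statistical fit. The progenitor gate is defined by absence of colour only, so any other cell of the dissected eye that lacks the reporters can enter it. The ganglion gate is defined by reporters only as well, and the name ganglion cells below means the group so labelled. Levels of mitosis genes and of regulators of other retinal fates in this group are given below.

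In the vertebrate retina, ganglion cells are the earliest neurons to leave the cell cycle. The transcription factor atoh7 makes progenitors competent for this fate, and POU4 and Islet factors then switch on genes of the axon and of neuronal excitability. Retinal progenitors divide while Notch signalling, Sox2 and eye field factors such as Rx keep them from differentiating. The ath5 reporter protein can outlast atoh7 transcription, and the cells that express atoh7 give rise to other retinal neurons besides ganglion cells.

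Counts per library totalled 21633460 to 27577958 in ganglion cells and 22438176 to 30583914 in progenitors, so the groups had like depth. Mitochondrial genes took 9.01% to 12.2% of ganglion counts and 11.1% to 13.6% of progenitor counts. Across genes, log2 levels correlated at 0.895 to 0.947 between ganglion libraries, at 0.865 to 0.921 between progenitor libraries and at 0.827 to 0.904 between the groups, a description only, since genes are not independent replicates. Levels are given in CPM, counts per 1000000 of the scaled library total. They do not correct for gene length, so they compare libraries for 1 gene and not genes with each other. Because RNA was measured in bulk, fewer cells of a type and less RNA per cell cannot be told apart. The labels call the libraries separate replicates of pooled retinas. The p-values measure the spread between libraries within groups, with an estimate shared by all groups of the series. Pools, cell sorting and amplification all enter this spread and were not separated. The labels do not say whether same-numbered libraries share a pool, and the main fit treats them as unpaired.

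Of 13838 genes tested, 398 (2.88%) passed an adjusted p of 0.05. Ganglion cells had the higher level for 275 of them (1.99% of genes tested) and the lower level for 123 (0.889%). The median log2 difference was 2.36 for the higher genes and -1.49 for the lower genes, against 0.03 for all genes tested. A log2 difference of at least 3 in size was reached by 114 higher and 48 lower genes. Groups did not overlap, with every ganglion library on 1 side of every progenitor library, for 347 of the 398 genes. Over all genes tested, 668 (4.83%) had all ganglion libraries above and 560 (4.05%) had all below.

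The balance of directions differed when the fit held other libraries. When ganglion and progenitor libraries were fitted alone, 691 of 11921 genes (5.8%) passed, 343 of them higher (2.88%) and 348 lower (2.92%). The share of calls that were higher was thus 69.1% with all 20 libraries and 49.6% with these 10, where the spread, the filter and the scaling all changed together. Both fits called 341 genes in the same direction, 230 higher and 111 lower. Without amacrine and horizontal replicate 1 the count was 657, and without progenitor replicate 5 it was 254. The genes kept in every one of the 20 fits that each left out 1 library numbered 218, of which 144 were higher.

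**Figure D1:**
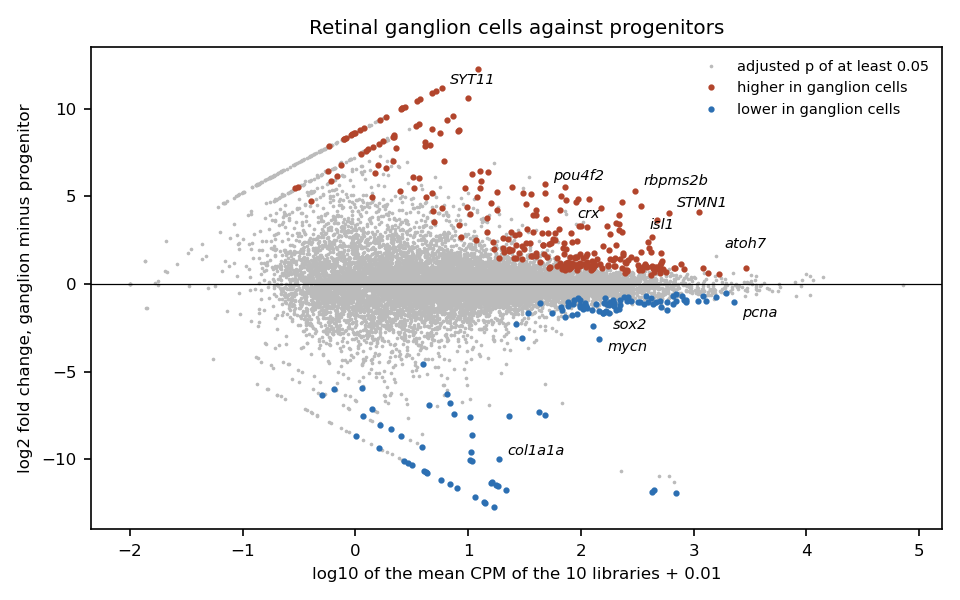
Each dot is 1 of 13838 genes, with its mean level over the 10 libraries on the x axis (log10 of CPM) and the log2 difference, ganglion minus progenitor, on the y axis. Coloured dots are the 275 higher and 123 lower genes; the lower genes split into a cloud that holds pcna near -1 and a sparse set far below, which holds the collagen gene col1a1a.

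Transcription factors of ganglion cells were higher in the ganglion group, and none on the list was called lower. Of 24 listed factors, 23 were matched to a gene and 20 passed the filter on low counts; 8 were called higher (33.3% of the list, against 1.99% of all genes tested). These were pou4f2, isl1, isl2b, irx1a, irx4b, barhl2, sox11a and sox11b. The median log2 difference of the 20 was 3.30. The other 12 did not pass the threshold. Of the 8 calls, 4 were kept in all 20 leave-one-out fits, and the count was 4 without progenitor replicate 5 and 5 without progenitor replicate 4 or without ganglion replicate 1.

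The reporter driver itself, atoh7 (ENSDARG00000069552, chr13:25449681-25450725, all coordinates GRCz11), stood at 3858, 1834, 2277, 1867 and 2051 CPM in ganglion replicates 1 to 5. In progenitor replicates 1 to 5 it stood at 1128, 510.1, 841, 696 and 804 CPM. Every ganglion library lay above every progenitor library, and replicate 1 was the highest of the ganglion libraries, yet the level in reporter-negative cells was far from 0. The log2 difference of 1.58 (SE 0.51, adjusted p 0.104) missed the threshold with all 20 libraries and passed it in the fit to the ganglion and progenitor groups alone (adjusted p 0.00313). For reference, atoh7 averaged 396 CPM in photoreceptors and 1810.1 CPM in amacrine and horizontal cells.

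Among POU4 genes, which encode POU-homeodomain factors needed for ganglion cell differentiation, pou4f2 (ENSDARG00000069737, chr1:36436936-36440301) was called. It stood at 104, 43.1, 91.5, 145 and 87.6 CPM in ganglion replicates 1 to 5 and at 3.98, 1.77, 0, 0 and 3.30 CPM in progenitor replicates 1 to 5. Progenitor replicates 3 and 4 had none, and no progenitor library reached the lowest ganglion library. The log2 difference was 5.70, SE 1.08, adjusted p 0.00391. A related gene of the family outside the list, named by its mean CPM, also passed: pou4f4 (ENSDARG00000044375, chr21:38312549-38315241), stood at 1290.0, 755, 699, 973 and 623 CPM in ganglion replicates 1 to 5 and at 80.4, 37.3, 114, 52.8 and 64.5 CPM in progenitor replicates 1 to 5. Its groups did not overlap either (log2 difference 3.64, SE 0.79, adjusted p 0.0123). The pou4f1 gene was near the floor in both groups, at means of 1.47 and 1.32 CPM, and did not pass the threshold.

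The Islet genes encode LIM-homeodomain factors that act with POU4 factors. Levels of isl1 (ENSDARG00000004023, chr5:40728613-40734045) were 1355, 374, 581, 362 and 594 CPM in ganglion replicates 1 to 5 and 49, 12.1, 44, 19 and 22.6 CPM in progenitor replicates 1 to 5. All ganglion libraries were several-fold above the highest progenitor library (log2 difference 4.48, SE 0.80, adjusted p 0.0023). For isl2b, a gene used to label ganglion cells in zebrafish, the levels were 39.2, 50.2, 62.7, 120.3 and 76.1 CPM and 8.08, 0, 0, 0 and 1.83 CPM in the same order. It was absent from most progenitor libraries (log2 difference 5.14, SE 1.19, adjusted p 0.0181), and the call was lost only without progenitor replicate 5, at 5.12. The paralog isl2a stood at 0.73 and 0.667 CPM on average and did not pass the threshold.

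Homeodomain factors of other families followed. The barhl2 gene (ENSDARG00000104361, chr6:24817852-24821681), which in mouse shapes ganglion and amacrine subtypes, stood at 158, 78.9, 88.8, 147 and 97.8 CPM in ganglion replicates 1 to 5 and at 13, 12.3, 18.6, 4.18 and 16.9 CPM in progenitor replicates 1 to 5. Its groups were apart by a log2 difference of 3.13 (SE 0.54, adjusted p 0.00175). The Iroquois gene irx4b (ENSDARG00000036051, chr19:28114503-28262897) stood at 17.2, 0.32, 11.6, 24 and 11.5 CPM in ganglion replicates 1 to 5 and at 0, 0.0311, 0, 0 and 0.0388 CPM in progenitor replicates 1 to 5. Only 2 counts fell on irx4b in all progenitor libraries together, which makes the ratio 835-fold (counting interval 231 to 6898) (adjusted p 0.00558). Its span overlaps the gene listed as IRX1, and counting ignored strand. Reads that hit both genes were left out, and other reads of the neighbour could still be counted on irx4b, so its count is uncertain. Another Iroquois gene, irx1a, averaged 35.3 ± 14.4 against 0.909 ± 1.02 CPM (SD, n = 5 each) and passed (log2 difference 5.27, SE 1.38, adjusted p 0.0393), with the call kept in 10 of 20 leave-one-out fits over differences of 4.93 to 6.05.

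The SoxC genes, which promote neuronal differentiation, had counts in every library of both groups. The sox11b gene averaged 512 ± 114 against 258 ± 96 CPM (SD, n = 5 each; log2 difference 0.99, SE 0.23, adjusted p 0.0181), and sox11a averaged 1053 ± 246 against 581 ± 201 CPM (log2 difference 0.86, SE 0.23, adjusted p 0.0396). For both, the lowest ganglion library lay below the highest progenitor library. The calls were kept in 17 of 20 and 9 of 20 leave-one-out fits, and sox11a was not called in the fit to the ganglion and progenitor groups alone (adjusted p 0.0521).

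Listed factors that missed the threshold included some with wide differences and wide spread. The T-box gene eomesa, known in mouse ganglion cells as Tbr2, stood at 24.9, 16.8, 37.7, 223 and 38.2 CPM in ganglion replicates 1 to 5 and at 0.0415, 3.39, 1.37, 0.0431 and 0.0777 CPM in progenitor replicates 1 to 5. Replicate 4 alone exceeded 200 CPM while the other ganglion libraries lay under 40, and no library overlapped (log2 difference 6.09, SE 1.68, adjusted p 0.0522). The ebf3a gene averaged 136 ± 33 against 7.43 ± 10.1 CPM and nhlh2 averaged 192 ± 133 against 16.4 ± 16.7 CPM (SD, n = 5 each). Neither overlapped between groups, and their adjusted p were 0.0756 and 0.0903.

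**Figure D2:**
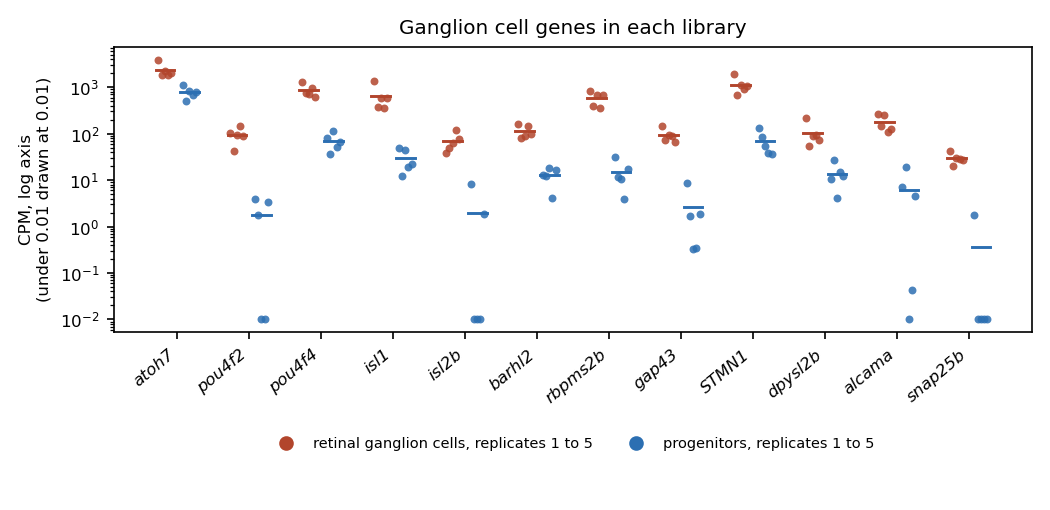
CPM of 12 genes in each library on a log axis, with ganglion libraries in red and progenitor libraries in blue; horizontal bars are means of 5 libraries and points at 0.01 are at or under that level. For all 12 genes the red points lie above the blue points, and atoh7 shows the narrowest gap.

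Genes for neuronal RNA binding, axons and adhesion were called higher in 13 of 30 listed cases (43.3%, against 1.99% of all genes tested), and none was called lower. All 30 were matched, 23 passed the filter, and the 13 were rbpms2a, rbpms2b, sncgb, elavl3, gap43, stmn2b, tubb5, dpysl3, dpysl2b, cxcr4b, alcama, alcamb and cntn2. The median log2 difference of the 23 was 3.60, and 3.46 with genes at 0 in 1 group set to their bound. As with the transcription factors, this median partly follows from the filter. Only 5 of the 13 calls were kept in all 20 leave-one-out fits. The count was 7 without progenitor replicate 3, 4 or 5 or without ganglion replicate 1, and 8 without progenitor replicate 2 or without ganglion replicate 4 or 5.

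RBPMS proteins bind RNA and mark ganglion cells across vertebrates. The rbpms2b gene (ENSDARG00000079578, chr7:48252638-48263633) stood at 836, 391, 688, 348 and 681 CPM in ganglion replicates 1 to 5 and at 32, 11.5, 10.6, 4.01 and 17.1 CPM in progenitor replicates 1 to 5. The lowest ganglion library was far above the highest progenitor library, and the log2 difference was 5.29 (SE 0.91, adjusted p 0.00168). Its paralog rbpms2a averaged 36.8 ± 15.5 against 9.05 ± 5.91 CPM (SD, n = 5 each; log2 difference 2.02, SE 0.51, adjusted p 0.0302), and was kept in 13 of 20 leave-one-out fits. The neuronal RNA-binding gene elavl3, also called HuC, averaged 373 ± 200.1 against 33.8 ± 27.2 CPM, but its call (log2 difference 3.46, SE 0.94, adjusted p 0.0483) was kept in 5 of 20 leave-one-out fits.

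Genes of the growth cone and the microtubule cytoskeleton were called as well. The growth cone gene gap43 (ENSDARG00000099744, chr15:47161917-47176151) stood at 147, 73.8, 93, 87.9 and 65 CPM in ganglion replicates 1 to 5 and at 8.66, 1.65, 0.333, 0.345 and 1.90 CPM in progenitor replicates 1 to 5. Groups did not overlap (log2 difference 5.18, SE 0.70, adjusted p 0.00013). A stathmin gene, which encodes a protein that binds tubulin, listed in the gene table as STMN1 (ENSDARG00000033655, chr16:34523515-34527206), stood at 1918, 691, 1088, 909 and 1038 CPM in ganglion replicates 1 to 5 and at 129.6, 84.6, 53.8, 38.1 and 36 CPM in progenitor replicates 1 to 5. All ganglion libraries were several-fold above the highest progenitor library (log2 difference 4.04, SE 0.41, adjusted p 5.58e-06). A second gene of that symbol in the table (ENSDARG00000004169) is described among the further observations.

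Collapsin response mediators link guidance receptors to the cytoskeleton. The dpysl2b gene (ENSDARG00000032083, chr10:18952271-18992471) stood at 213, 53, 88.1, 93.9 and 73.1 CPM in ganglion replicates 1 to 5 and at 10.3, 27.6, 4.04, 14.9 and 12.1 CPM in progenitor replicates 1 to 5. Replicate 1 was the highest of the ganglion libraries, and no progenitor library reached the lowest of them (log2 difference 2.92, SE 0.47, adjusted p 0.000999). The dpysl3 gene averaged 70.2 ± 6.66 against 4.62 ± 4.36 CPM (SD, n = 5 each; log2 difference 3.92, SE 0.92, adjusted p 0.0197). Tubulin tubb5 averaged 278 ± 51.9 against 106 ± 37 CPM (log2 difference 1.39, SE 0.33, adjusted p 0.0227; kept in 16 of 20 leave-one-out fits), and stmn2b averaged 60.1 ± 19.5 against 1.66 ± 2.36 CPM (log2 difference 5.17, SE 1.35, adjusted p 0.0386; kept in 8 of 20).

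Synuclein gamma marks ganglion cells, and sncgb (ENSDARG00000109715, chr12:25894539-25916530) had no count in any progenitor library. Its ganglion levels were 1.06, 4.44, 1.04, 6.92 and 3.02 CPM in replicates 1 to 5, at least 25.5-fold higher against a floor of 3 counts per library (adjusted p 0.018). Neurofilament genes gave no such signal: nefma, nefmb, nefla and neflb averaged 0.0741, 0.0275, 0.0632 and 0.0222 CPM in ganglion cells, and none passed the filter. The alpha-internexin gene inab averaged 33.7 ± 8.82 against 0.274 ± 0.612 CPM (SD, n = 5 each) without overlap, and missed the threshold at adjusted p 0.054.

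Surface proteins of ganglion axons were led by cxcr4b, a chemokine receptor that guides migrating cells and retinal axons. It stood at 4505, 985, 2038, 1253 and 1797 CPM in ganglion replicates 1 to 5 and at 105, 24.7, 152, 313 and 3.92 CPM in progenitor replicates 1 to 5. Every ganglion library exceeded every progenitor library, but the progenitor libraries themselves spanned from single digits to over 300, and the call (log2 difference 4.14, SE 1.09, adjusted p 0.0396) was kept in 12 of 20 leave-one-out fits. The adhesion gene alcama, whose protein marks young ganglion cells in zebrafish, stood at 269.9, 146, 253, 111 and 123 CPM in ganglion replicates 1 to 5 and at 7.21, 18.8, 0, 0.0431 and 4.51 CPM in progenitor replicates 1 to 5. Groups were apart (log2 difference 4.88, SE 1.15, adjusted p 0.0197), and the call was lost only without progenitor replicate 5, at 4.77. The paralog alcamb averaged 358 ± 105 against 112 ± 45.6 CPM (SD, n = 5 each; log2 difference 1.68, SE 0.40, adjusted p 0.024; kept in 16 of 20). Counts of cntn2, an axonal adhesion gene, numbered 67 in all ganglion libraries and 1 in all progenitor libraries, a ratio of 71.8-fold (counting interval 12.9 to 2838), with a call kept in 1 of 20 leave-one-out fits.

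Receptors and ligands of axon guidance gave no calls with all 20 libraries. The 33 listed genes included robo, slit, netrin, semaphorin, plexin, neuropilin and Eph family members. Of these 31 were matched, 27 passed the filter and 0 were called by edgeR in either direction. Over all genes tested 2.88% were called, so a list of this size could hold 0 calls at that share. The median log2 difference of the 27 was -0.19, with 12 positive and 15 negative. In the fit to the ganglion and progenitor groups alone 1 was called higher, where 2.88% of all genes tested were called higher. This was nrp1b, a neuropilin co-receptor for semaphorins, at 11.5, 5.05, 6.46, 6.55 and 5.53 CPM in ganglion replicates 1 to 5 and at 0.456, 0.714, 0.0417, 0.345 and 0.0777 CPM in progenitor replicates 1 to 5. Its adjusted p was 0.0177 in that fit and 0.232 with all 20 libraries.

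Synaptic release genes past the filter were largely on the higher side, with few calls. Of 21 listed genes 20 were matched, 16 passed the filter and 3 were called higher (14.3% of the list, against 1.99% of all genes tested): snap25b, vamp2 and stxbp1b. The median of the 16 was 4.07, and 4.03 with genes at 0 set to their bound. Members near 0 in progenitors could pass the filter only through other libraries, which makes a positive sign and median likely in advance. In the fit to the ganglion and progenitor groups alone, 12 passed the filter and 2 were called higher. The membrane fusion gene snap25b (ENSDARG00000058117, chr17:12297984-12389259) stood at 42.9, 19.8, 30.1, 27.9 and 27.4 CPM in ganglion replicates 1 to 5 and at 1.78, 0, 0, 0 and 0 CPM in progenitor replicates 1 to 5. Progenitor replicate 1 held nearly all of the progenitor signal (log2 difference 6.38, SE 1.04, adjusted p 0.00103). The Munc18 gene stxbp1b averaged 18.3 ± 7.81 against 0.4 ± 0.773 CPM (SD, n = 5 each; log2 difference 5.51, SE 1.27, adjusted p 0.0178), lost without progenitor replicates 2, 3 or 5 at 5.25, 5.23 and 5.22. The call of vamp2 (log2 difference 4.15, SE 1.12, adjusted p 0.0476) was kept in 3 of 20 leave-one-out fits. The list's count was 1 without progenitor replicate 3 or 5 and 6 without progenitor replicate 1.

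The largest differences towards ganglion cells were taken among genes that also passed in the fit to the ganglion and progenitor groups alone and averaged at least 10 CPM. SYT11 (ENSDARG00000056105, chr16:28842414-28856112), a synaptotagmin gene, had no progenitor count and stood at 17.1, 7.18, 12.5, 8.16 and 13.7 CPM in ganglion replicates 1 to 5, at least 90.6-fold higher (adjusted p 0.00115). The kinesin gene KIF3C (ENSDARG00000079500, chr17:37204229-37214196) had 1 count in all progenitor libraries and stood at 43, 19.6, 16.9, 13.9 and 6.93 CPM in ganglion cells, a ratio of 2593-fold (counting interval 465 to 102400.0) and an adjusted p of 0.00422. Both genes were thus present in every ganglion library and all but absent from progenitors.

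Among others of this kind was CLVS2 (ENSDARG00000053122), a clavesin gene of clathrin traffic, at 16.4 ± 10.2 against 0.0332 ± 0.0741 CPM (SD, n = 5 each). The epsin gene epn1b, of clathrin-coated endocytosis, averaged 11.3 ± 7.2 against 0.0242 ± 0.0353 CPM (adjusted p 5.68e-05), with 3 progenitor counts in all. RUNDC3A (ENSDARG00000002546), FGF13 (ENSDARG00000056633), which encodes an intracellular partner of sodium channels, and PANX1 (ENSDARG00000014910), a pannexin channel gene, differed by 7.0, 6.26 and 6.47 on the log2 scale. The first was kept in 15 of 20 leave-one-out fits, the second was lost without progenitor replicates 2 or 5 (6.08 and 5.95), and PANX1 was kept in all 20. The clustered protocadherin pcdh1g26 also belonged to this set at 16.1 ± 6.51 against 0.0335 ± 0.0541 CPM. Its span holds 17 other genes of the annotation, most of them cluster members that share exons, so its count is uncertain.

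The genes chosen by their mean CPM in the ganglion group, with a log2 difference of at least 1, included cofactors of the Islet and LIM-homeodomain factors. LDB1 (ENSDARG00000010137), which bridges LIM-homeodomain proteins, averaged 708 ± 147 against 309 ± 79.1 CPM (SD, n = 5 each; log2 difference 1.20, SE 0.19, adjusted p 0.000734). The LDB1 span overlaps 4 other genes of the annotation and counting ignored strand, so its count is uncertain. A gene for one of the binding partners of LDB1, ssbp3b, averaged 687 ± 182 against 317 ± 30.8 CPM (log2 difference 1.11, SE 0.20, adjusted p 0.00189). The neuronal membrane glycoprotein gene GPM6A (ENSDARG00000004621, chr1:38649141-38756904) stood at 1078, 645, 755, 459.8 and 780.1 CPM in ganglion replicates 1 to 5 and at 179.9, 94, 133, 74.5 and 105 CPM in progenitor replicates 1 to 5. It had the smallest adjusted p of the genes named here (log2 difference 2.66, SE 0.24, adjusted p 2.13e-06). The creatine kinase gene CKB (ENSDARG00000043257) averaged 658 ± 179 against 127 ± 59.5 CPM (log2 difference 2.38, SE 0.32, adjusted p 0.000115).

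Many of these genes were not higher in the ganglion group than in the amacrine and horizontal cell group. For isl1 the mean was 653 CPM in ganglion cells, 1004 CPM in amacrine and horizontal cells and 71.7 CPM in photoreceptors. For pou4f2 the means were 94.3, 121 and 9.74 CPM in the same order, for barhl2 114, 667 and 12.3 CPM, and for rbpms2b 588, 847 and 92.3 CPM. Summed over the transcription factor list, levels were 4303 to 8482 CPM per ganglion library, 4610 to 9849 CPM per amacrine and horizontal library and 504 to 2166 CPM per photoreceptor library. For the RNA binding, axon and adhesion list, sums averaged 4374 CPM in ganglion cells and 4895 CPM in amacrine and horizontal cells. Photoreceptors averaged 889 CPM. Synaptic release genes summed to 215 to 349 CPM per ganglion library. That was below the 650 to 1249 CPM per amacrine and horizontal library and the 601 to 840 CPM per photoreceptor library. These are levels side by side, and no test was made between them.

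Photoreceptor regulators were also higher in the ganglion group than in progenitors, although the gate was negative for the crx reporter. Of 27 listed photoreceptor genes 22 were matched, 10 passed the filter, and 7 were called higher (25.9% of the list, against 1.99% of all genes tested): crx, otx2b, nr2e3, gngt2a, six7, thrb and tulp1a. None was called lower. The transducin gamma gene gngt2a, of the cone light response, averaged 8.21 ± 6.87 against 0.242 ± 0.542 CPM (SD, n = 5 each; adjusted p 0.0343). Of the other genes of the light response, some were at or near 0: gnat2, arr3a and gngt2b had no count in either group, and gnat1, pde6c and pde6h averaged at most 0.0166 CPM in either.

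The crx gene (ENSDARG00000011989, chr5:36932718-36936443), the homeobox regulator behind the reporter used for the gate, stood at 333, 444, 304, 437 and 417 CPM in ganglion replicates 1 to 5 and at 44.5, 25.3, 19.5, 95.8 and 45.5 CPM in progenitor replicates 1 to 5. All ganglion libraries lay above 300 CPM and all progenitor libraries below 100 CPM (log2 difference 3.07, SE 0.33, adjusted p 1.2e-05). Photoreceptors averaged 1278 CPM. The related otx2b gene (ENSDARG00000011235, chr17:44244659-44249720), which acts upstream of crx in mouse, stood at 821, 872, 739, 746 and 797 CPM in ganglion replicates 1 to 5 and at 227, 284, 137, 279.8 and 242 CPM in progenitor replicates 1 to 5 and differed by 1.77 (SE 0.20, adjusted p 1.69e-05).

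Receptor and homeobox genes of cones and rods showed the same order. The nuclear receptor gene nr2e3 (ENSDARG00000045904, chr25:22274642-22278655) stood at 405, 547, 393, 399.6 and 489.8 CPM in ganglion replicates 1 to 5 and at 37.3, 0, 19.8, 11.1 and 17 CPM in progenitor replicates 1 to 5. Groups did not overlap (log2 difference 4.71, SE 0.80, adjusted p 0.00143). The thyroid hormone receptor gene thrb, needed for red cones in zebrafish, stood at 467, 208, 562, 469 and 336 CPM in ganglion replicates 1 to 5 and at 35, 5.65, 38.2, 24 and 28.2 CPM in progenitor replicates 1 to 5 (log2 difference 3.96, SE 0.53, adjusted p 0.000115). For six7 (ENSDARG00000070107, chr7:7401692-7420301), which controls middle-wavelength cone opsins in zebrafish, the levels were 90.6, 59.5, 105, 169 and 279.8 CPM in ganglion replicates and 5.18, 0.124, 3.42, 5.69 and 0.855 CPM in progenitor replicates. Progenitor levels were close to 0 in comparison (log2 difference 5.53, SE 0.70, adjusted p 8.27e-05), and photoreceptors averaged 731 CPM.

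From the genes chosen by size of change, SAMD7 (ENSDARG00000060354), which encodes a photoreceptor repressor protein in mouse, averaged 25.7 ± 18.2 against 0.433 ± 0.615 CPM and 346 CPM in photoreceptors (ganglion against progenitor 5.90, SE 0.86, adjusted p 0.000271 on the log2 scale). LHX4 (ENSDARG00000039458), a LIM-homeodomain gene of cones and bipolar cells in mouse, averaged 47.8 ± 11.2 against 1.03 ± 2.29 CPM and 162 CPM in photoreceptors (log2 difference 5.53, SE 1.28, adjusted p 0.0181). Summed over the photoreceptor list, levels were 2142, 2206, 2187, 2298 and 2416 CPM in ganglion replicates 1 to 5 and 371, 318, 218, 417 and 343 CPM in progenitor replicates 1 to 5. The ganglion libraries were thus close to each other and uniformly above the progenitors. This was not particular to the ganglion group. The same sum was 1530 to 1726 CPM per amacrine and horizontal library and 4725 to 6444 CPM per photoreceptor library. Whether photoreceptor precursors within the gate account for these levels was not tested.

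Amacrine, horizontal and bipolar genes gave fewer calls. Of 18 listed amacrine and horizontal genes, all matched and 15 past the filter, 2 were called higher (11.1% of the list, against 1.99% of all genes tested) and none lower. The first was ptf1a (ENSDARG00000014479, chr2:29710857-29711761), which commits cells to the amacrine and horizontal fates and drives the third reporter, at 229, 253, 149.9, 119.8 and 164 CPM in ganglion replicates 1 to 5 and at 37.5, 8.82, 17.3, 0 and 29.4 CPM in progenitor replicates 1 to 5. Ganglion libraries lay above 100 CPM and progenitor libraries below 40 CPM (log2 difference 3.30, SE 0.85, adjusted p 0.0364), with the call kept in 13 of 20 leave-one-out fits. The second was tfap2c, an AP-2 factor gene, at 91.4 ± 17.5 against 6.85 ± 5.98 CPM (SD, n = 5 each; log2 difference 3.74, SE 0.66, adjusted p 0.00189). Genes of inhibitory transmission stayed near the floor, with slc32a1 at 0.774 and gad2 at 0.389 CPM in ganglion cells against 70.0 and 31.9 CPM in amacrine and horizontal cells.

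The bipolar homeobox gene vsx1 was the only call among 8 listed bipolar genes, of which 4 passed the filter (12.5% of the list, against 1.99% of all genes tested). A single call in a list this short does not set the list apart. The vsx1 gene stood at 403, 574, 310.3, 571 and 666 CPM in ganglion replicates 1 to 5 and at 155, 208, 175, 368 and 236 CPM in progenitor replicates 1 to 5, with 1 ganglion library below the highest progenitor library (log2 difference 1.15, SE 0.25, adjusted p 0.0125). Among 12 Müller glia genes 7 passed the filter and 1 was called higher (8.33% of the list, against 1.99% of all genes tested). This was apoeb, at 43 ± 18.1 against 5.38 ± 5.46 CPM (SD, n = 5 each; log2 difference 2.99, SE 0.80, adjusted p 0.0454), kept in 3 of 20 leave-one-out fits. The glutamine synthetase gene glula lay lower in every ganglion library, a mean of 25.5 against 99.9 CPM, and missed the threshold (adjusted p 0.43). In the fit to the ganglion and progenitor groups alone, 0 genes of the Müller glia list were called higher and 1 was called lower.

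**Figure D3:**
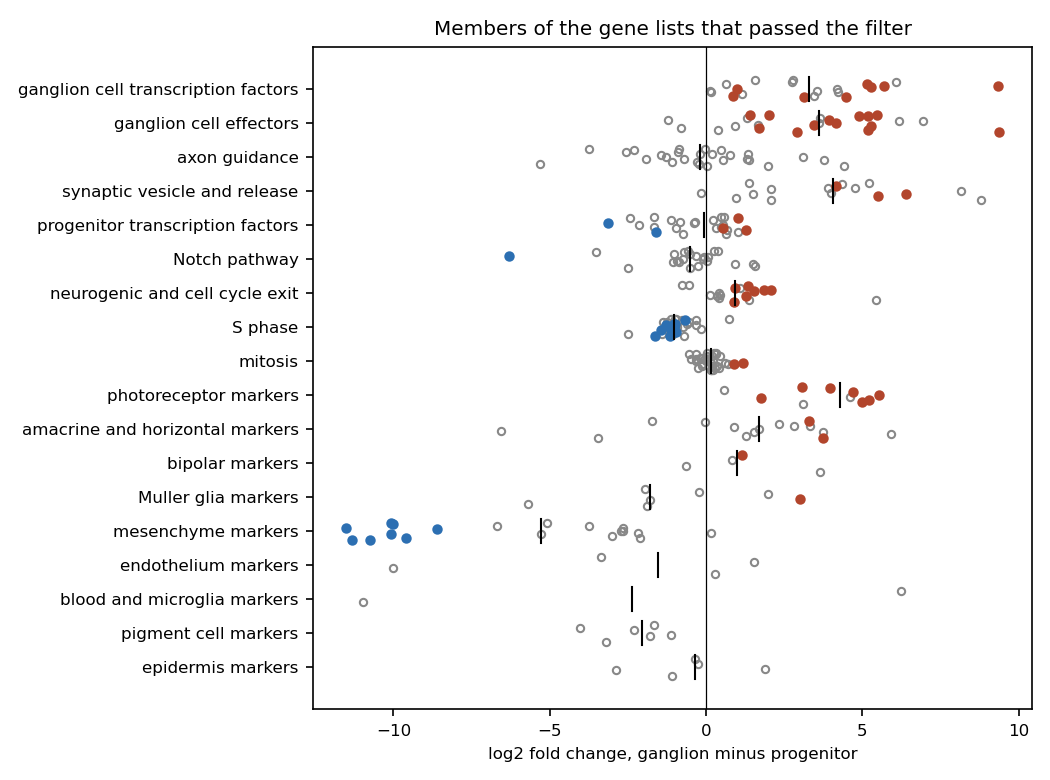
Each circle is a gene that passed the filter, placed by its log2 difference, ganglion minus progenitor, on the x axis and by its list on the y axis; filled red and blue circles passed the threshold as higher and lower, and black bars mark list medians. The medians of the ganglion and photoreceptor lists lie to the right of 0. S phase genes gather near -1, mitosis genes near 0, and mesenchyme genes reach beyond -8. Signs and medians partly follow from the filter, which a gene near 0 in a group can pass through other groups. The lens list had no gene past the filter and is not drawn.

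Neurogenic and cell cycle exit genes were higher in ganglion cells for 7 of 21 listed (33.3%, against 1.99% of all genes tested), with 20 matched and 18 past the filter, and none was called lower. The 7 were neurod1, neurod4, insm1a, btg1, gadd45ga, cdkn1bb and cdkn1ca, and the median of the 18 was 0.92. The bHLH gene neurod1 (ENSDARG00000019566, chr9:44291721-44295071), a driver of neuronal differentiation, stood at 617, 543, 716, 523 and 854 CPM in ganglion replicates 1 to 5 and at 181, 201, 167, 196 and 153 CPM in progenitor replicates 1 to 5. Its libraries did not overlap (log2 difference 1.86, SE 0.18, adjusted p 3.39e-06), and photoreceptors averaged more, 2008 CPM.

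A p57 and a p27 gene, both cell cycle inhibitors, rose. The p57 gene cdkn1ca (ENSDARG00000010878, chr7:48663031-48667056) stood at 567, 788, 731, 456 and 710.1 CPM in ganglion replicates 1 to 5 and at 168, 122, 175, 93.4 and 221 CPM in progenitor replicates 1 to 5. No progenitor library reached the lowest ganglion library (log2 difference 2.06, SE 0.43, adjusted p 0.00935), and photoreceptors averaged 159 CPM. The second p57 gene, cdkn1cb, averaged 85.4 ± 39 against 45.7 ± 31 CPM with overlap and did not pass (adjusted p 0.748). The p27 gene cdkn1bb averaged 108 ± 17 against 44.9 ± 18.1 CPM (SD, n = 5 each; log2 difference 1.26, SE 0.28, adjusted p 0.0154; kept in 17 of 20 leave-one-out fits). The antiproliferative gene btg1 averaged 747 ± 123 against 296 ± 106 CPM (log2 difference 1.33, SE 0.24, adjusted p 0.00273), and the zinc finger gene insm1a averaged 899 ± 135 against 472 ± 62.8 CPM (log2 difference 0.93, SE 0.21, adjusted p 0.0136).

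Genes that act earlier in neurogenesis did not pass the threshold in the cases of ascl1a, neurog1 and foxn4. The proneural gene ascl1a averaged 198 ± 89.1 against 289 ± 76.9 CPM (SD, n = 5 each; adjusted p 0.443). For neurog1 the means were 48 ± 17.9 against 37.7 ± 11.7 CPM (adjusted p 0.828). The forkhead gene foxn4, expressed in dividing precursors of amacrine and horizontal cells in mouse, averaged 703 ± 87.6 against 520.1 ± 90.6 CPM without overlap between groups (adjusted p 0.195).

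Progenitor transcription factors and related genes moved in both directions. Of 26 listed genes 25 were matched and 24 passed the filter; 2 were called lower, sox2 and mycn (7.69% of the list, against 0.889% of all genes tested), and 3 higher, six3a, myca and msi1b (11.5%, against 1.99%). The higher count was 0 without progenitor replicate 3 or 5 and 0 when ganglion replicate 3 or 5 was left out. The median of the 24 was -0.08, with 12 positive and 12 negative. Summed over the list, levels were 12510 to 20617 CPM per ganglion library and 10539 to 13062 CPM per progenitor library, with overlap. The sum averaged 15578 CPM in ganglion cells, 11745 CPM in progenitors, 25369 CPM in photoreceptors and 19544 CPM in amacrine and horizontal cells. The list's sum was thus not highest in progenitors, but a sum is set by its most abundant members and does not describe the others. The fit to the ganglion and progenitor groups alone called 5 lower and 2 higher. Only the sox2 call was kept in all 20 leave-one-out fits; the lower count was 1 without any single ganglion library or without progenitor replicate 3 or 5. It was 4 when amacrine and horizontal replicate 1 was left out.

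Sox2 maintains neural progenitors. The sox2 gene (ENSDARG00000070913, chr22:37347896-37349967) stood at 88.8, 99.7, 76.8, 67.7 and 73.6 CPM in ganglion replicates 1 to 5 and at 199, 267, 219.6, 283 and 254 CPM in progenitor replicates 1 to 5. All ganglion libraries lay below 100 CPM and all progenitor libraries above 190 CPM (log2 difference -1.59, SE 0.26, adjusted p 0.0011). Its span overlaps the non-coding gene sox2ot. Amacrine and horizontal cells averaged 242 CPM, near the progenitor mean.

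The growth regulator mycn (ENSDARG00000006837, chr20:33294428-33299384) also fell. It stood at 31, 22.4, 43.9, 17 and 34.3 CPM in ganglion replicates 1 to 5 and at 242, 256, 346, 232 and 220.4 CPM in progenitor replicates 1 to 5. All progenitor libraries were several-fold above the highest ganglion library (log2 difference -3.12, SE 0.77, adjusted p 0.0269), and the call was kept in 13 of 20 leave-one-out fits over differences of -3.31 to -2.98. Its relative myca went the other way, at 124 ± 24.9 against 61.2 ± 7.98 CPM (SD, n = 5 each; log2 difference 1.02, SE 0.24, adjusted p 0.0222; kept in 15 of 20). The eye field gene six3a averaged 344 ± 156 against 143 ± 36.7 CPM (log2 difference 1.27, SE 0.34, adjusted p 0.0476; kept in 7 of 20), and the RNA-binding gene msi1b averaged 496 ± 96.8 against 339.6 ± 30.1 CPM with overlapping groups (log2 difference 0.55, SE 0.15, adjusted p 0.0464; kept in 7 of 20).

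The eye field gene rx1 averaged 196 ± 62.2 against 380.3 ± 34.2 CPM and the nuclear receptor gene nr2e1 averaged 101 ± 28.2 against 219.8 ± 62.7 CPM (SD, n = 5 each). Both lacked overlap, with adjusted p of 0.168 and 0.0906. The Pax6 genes, shared by progenitors, ganglion and amacrine cells, averaged 473 ± 144 against 340.1 ± 78.9 CPM for pax6a and 499.9 ± 172 against 431 ± 87.8 CPM for pax6b, with adjusted p of 0.546 and 0.904.

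Notch pathway genes gave 1 call among 30 listed, 27 matched and 23 past the filter, and it was lower (3.33% of the list, against 0.889% of all genes tested). This was the receptor gene notch2 (ENSDARG00000043130, chr8:19548985-19619792), at 0.212, 0.178, 0.0398, 0.137 and 0.221 CPM in ganglion replicates 1 to 5 and at 5.60, 22.2, 7.37, 18.4 and 10.2 CPM in progenitor replicates 1 to 5. Ganglion levels were close to 0 throughout (log2 difference -6.29, SE 1.18, adjusted p 0.00354). The gene is also expressed in vascular and mesenchymal cells, and its progenitor levels stand beside those of the mesenchyme genes given further on; the part of those cells in the difference was not tested.

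Other receptors, ligands and targets stood closer together. The receptor genes notch1a and notch3 averaged 138 ± 17.4 against 207 ± 78.3 CPM and 139.9 ± 30.9 against 200.1 ± 72.5 CPM (SD, n = 5 each), with adjusted p of 0.429 and 0.735. The Delta ligand gene dlc averaged 109 ± 31.7 against 222 ± 34.9 CPM with no overlap (adjusted p 0.186, and 0.0126 in the fit to the ganglion and progenitor groups alone), while dlb averaged 219.8 ± 47.1 against 213 ± 25.1 CPM. The Notch target her4.1 averaged 85.3 ± 52 against 163 ± 33.4 CPM (adjusted p 0.362). Of the 23 genes past the filter 16 had a negative difference, and the median was -0.51. The Delta entry dld was matched to a gene listed in capitals as DLD (ENSDARG00000008785). That human-style symbol may name a gene outside the pathway, so the list's counts and median may include 1 such gene.

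DNA replication genes were lower in ganglion cells. Of 35 listed S phase genes 34 were matched, all 34 passed the filter, 10 were called lower (28.6% of the list, against 0.889% of all genes tested) and none was called higher. The 10 were mcm3, mcm4, mcm5, pcna, rrm1, gins2, rpa2, rpa3, fen1 and lig1. The median of the 34 was -1.04, 33 of them were negative, and 24 had all ganglion libraries below all progenitor libraries, as had 4.05% of all genes tested. The fit to the ganglion and progenitor groups alone called 22, and the fit without amacrine and horizontal replicate 1 called 19.

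The replication clamp gene pcna (ENSDARG00000054155, chr10:40821804-40826657), stood at 1112, 1733, 1655, 1074 and 1851 CPM in ganglion replicates 1 to 5 and at 2834, 2928, 3442, 2542 and 3521 CPM in progenitor replicates 1 to 5. The highest ganglion library remained under the lowest progenitor library (log2 difference -1.04, SE 0.19, adjusted p 0.00309). The DNA ligase gene lig1 (ENSDARG00000060041, chr2:44301276-44344321) had the largest difference of the called replication genes, at 94.9, 62.8, 105, 46.5 and 71.6 CPM in ganglion replicates 1 to 5 and at 295, 135, 191, 299 and 254 CPM in progenitor replicates 1 to 5 (log2 difference -1.62, SE 0.25, adjusted p 0.000567). Neither gene was at 0 in any ganglion library.

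Subunits of the replicative helicase followed. The mcm5 gene averaged 272 ± 57.5 against 605 ± 87.3 CPM (SD, n = 5 each; log2 difference -1.15, SE 0.26, adjusted p 0.0154). The mcm2 and mcm6 genes averaged 320.0 ± 74.2 against 702 ± 184 CPM and 283 ± 80.5 against 634 ± 199 CPM, without overlap either, and missed the threshold at adjusted p 0.0535 and 0.0605. The flap nuclease gene fen1 averaged 301 ± 61 against 617 ± 81.7 CPM (log2 difference -1.04, SE 0.19, adjusted p 0.00256), and the helicase-loading partner gins2 averaged 56.5 ± 18.5 against 153 ± 37 CPM (log2 difference -1.44, SE 0.28, adjusted p 0.0048). Calls of mcm3, mcm4 and rpa3 were kept in 12 of 20, 14 of 20 and 13 of 20 leave-one-out fits, and the other 7 were kept in all. The cyclin gene ccnd1 averaged 1241 ± 137 against 1538 ± 101 CPM (adjusted p 0.458).

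Mitosis genes did not show this shift. Of 33 listed genes 32 were matched, all 32 passed the filter, none was called lower and 2 were called higher, cdca3 and prc1b (6.06% of the list, against 1.99%). The median was 0.15, with 20 positive and 12 negative. The mitotic kinase gene cdk1 stood at 486, 513, 422, 545 and 614 CPM in ganglion replicates 1 to 5 and at 432, 453, 356, 442 and 393 CPM in progenitor replicates 1 to 5. Ganglion and progenitor libraries overlapped (log2 difference 0.31, SE 0.19, adjusted p 0.591). The proliferation marker mki67 averaged 451 ± 59.2 against 541 ± 101 CPM (SD, n = 5 each; log2 difference -0.26, SE 0.19, adjusted p 0.688).

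The cell division gene cdca3 stood at 638, 476, 471, 696 and 562 CPM in ganglion replicates 1 to 5 and at 344, 269.7, 203, 435 and 281 CPM in progenitor replicates 1 to 5. The ranges did not meet (log2 difference 0.89, SE 0.21, adjusted p 0.0207), and the call was kept in 15 of 20 leave-one-out fits. The spindle midzone gene prc1b averaged 137 ± 22.4 against 60.2 ± 13.8 CPM (log2 difference 1.19, SE 0.31, adjusted p 0.0375; kept in 9 of 20). The mitosis count was 0 when progenitor replicate 2, 3 or 5 or ganglion replicate 1 or 4 was left out. It was 1 without progenitor replicate 1 or 4, photoreceptor replicate 4 or 5 or ganglion replicate 2 or 5.

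Summed over each list, S phase genes took 7199.6, 8021, 7784, 6462 and 7411 CPM in ganglion replicates 1 to 5 and 13691, 13018, 14744, 14752 and 13446 CPM in progenitor replicates 1 to 5. Mitosis genes took 6273, 6356, 5762, 7335 and 7350.3 CPM and 6091, 5885, 4879, 6227 and 6662 CPM in the same order. The S phase sums were separated by a wide gap, and the mitosis sums overlapped. The mitosis sum averaged 6615 CPM in ganglion cells, 5949 CPM in progenitors, 5113 CPM in photoreceptors and 4100 CPM in amacrine and horizontal cells. The ganglion mean was thus the highest of all groups of the series. The S phase sum averaged 13389 CPM in photoreceptors, near the progenitor mean of 13930 CPM. It averaged 5072 CPM in amacrine and horizontal cells, below the ganglion mean of 7376 CPM. A high S phase level was thus not particular to progenitors, nor a lower one to ganglion cells. A test of the difference between the lists, or against these other groups, was not made.

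**Figure D4:**
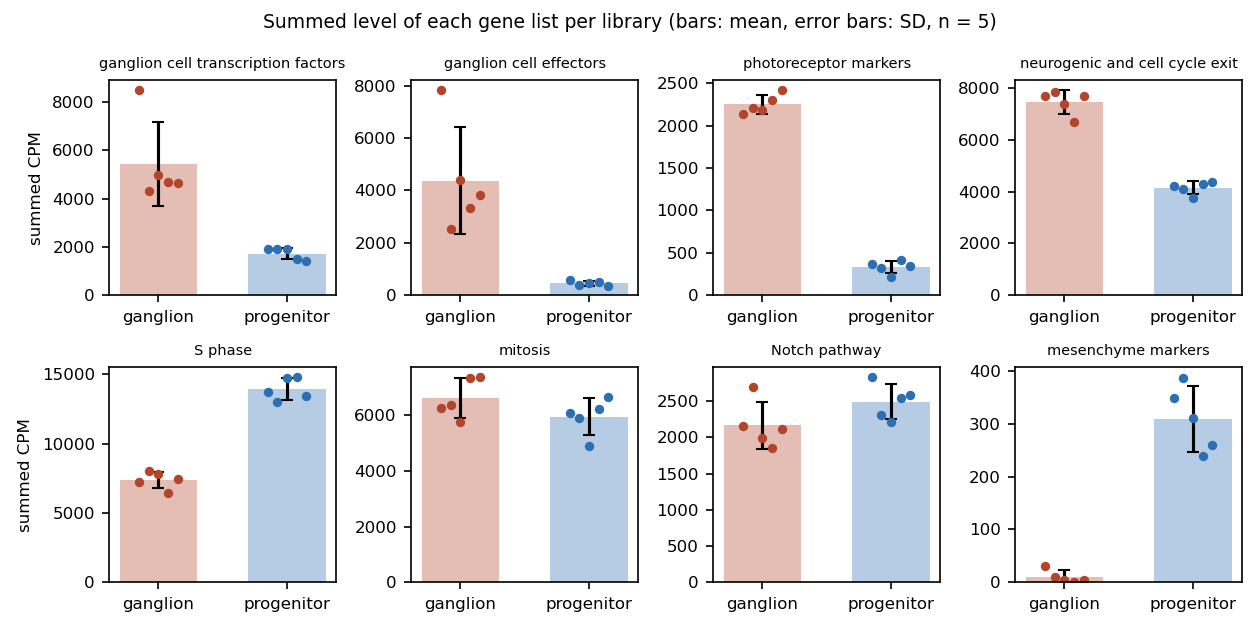
Summed CPM of 8 gene lists per library, with bars for the mean, error bars for the SD and points for the 5 libraries of each group. The 2 groups are separated for the ganglion, photoreceptor, exit, S phase and mesenchyme lists and overlap for mitosis and Notch genes; ganglion replicate 1 stands at 8482 CPM for ganglion transcription factors, above the 4303 to 4992 CPM of the other 4.

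Further genes were chosen for being lower in ganglion cells and for their mean CPM in progenitors. The nucleolar chaperone gene npm1a (ENSDARG00000014329, chr10:22034477-22045119) stood at 218, 349, 408, 272 and 315 CPM in ganglion replicates 1 to 5 and at 721, 679, 1141, 1001 and 755 CPM in progenitor replicates 1 to 5. The groups were apart in every library (log2 difference -1.46, SE 0.21, adjusted p 0.000271). The histone chaperone gene NASP (ENSDARG00000039208) averaged 383 ± 77.9 against 775 ± 105 CPM (SD, n = 5 each; log2 difference -1.02, SE 0.16, adjusted p 0.000973), and hmgn7, a nucleosome-binding protein gene by its symbol, averaged 555 ± 65.6 against 1145 ± 112 CPM (log2 difference -1.04, SE 0.14, adjusted p 0.000102). The cell cycle gene CDCA7 (ENSDARG00000077620) averaged 228 ± 18.5 against 503 ± 136 CPM, tubulin tuba8l4 averaged 296 ± 56.6 against 730.4 ± 378 CPM and the lactate dehydrogenase gene LDHB (ENSDARG00000019644) averaged 219.9 ± 45.1 against 445 ± 56.1 CPM. The CDCA7 and tuba8l4 calls were kept in 17 of 20 and 17 of 20 leave-one-out fits, LDHB in all.

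Genes of mesenchyme and matrix were lower in ganglion cells. Of 23 listed mesenchyme genes, all matched and 19 past the filter, 8 were called lower in ganglion cells (34.8% of the list, against 0.889% of all genes tested), among them foxc1a, foxc1b, twist1a, pdgfra, col1a1a, col1a2 and lum. None was called higher, 18 of the 19 were negative, and the median was -5.28. Summed over the list, levels averaged 309 CPM in progenitors. They averaged 10.3, 10.9 and 2.50 CPM in ganglion cells, photoreceptors, and amacrine and horizontal cells. Members could thus pass the filter through the progenitor libraries alone, which makes a negative sign and median likely in advance. Summed levels were 0.779 to 31.3 CPM per ganglion library and 238 to 387 CPM per progenitor library, so every progenitor library carried the signal.

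Regulators of the periocular mesenchyme, which forms the tissue around the eye, were present in all progenitor libraries. The foxc1a gene (ENSDARG00000091481, chr2:686873-689047) had 2 ganglion counts and stood at 22.5, 6.46, 6.50, 35.8 and 36.2 CPM in progenitors, a ratio of 1403-fold (counting interval 388 to 11580.0) (adjusted p 0.00145). For twist1a, with no ganglion count, progenitor levels were 8.29, 9.63, 4.71, 18.2 and 2.33 CPM, and its ganglion level was at least 62.8-fold lower (adjusted p 0.0146). These factors were at the floor in ganglion cells throughout.

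Matrix and receptor genes kept them company. The collagen gene col1a1a (ENSDARG00000012405, chr3:23221047-23239458) averaged 0.0316 ± 0.0181 against 37.2 ± 23 CPM (SD, n = 5 each; log2 difference -10.01, SE 1.21, adjusted p 4.64e-05), and col1a2 averaged 0.0511 ± 0.0761 against 21.4 ± 12.9 CPM (log2 difference -8.61, SE 1.69, adjusted p 0.00546). The growth factor receptor gene pdgfra stood at 11.6, 22, 48.9, 1.21 and 23.1 CPM in progenitors, with 3 ganglion counts in all (adjusted p 0.00469). The proteoglycan gene lum, lumican, stood at 27.2, 70.1, 47.8, 4.79 and 10.7 CPM there, with 1 ganglion count (adjusted p 0.00129).

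The genes chosen by size of change, which had to pass in both fits without overlap, held further matrix genes and others. FMOD (ENSDARG00000044895), fibromodulin, cd248b, a stromal receptor gene, and CTHRC1 (ENSDARG00000087198), a collagen repeat gene, had no ganglion count. They averaged 28.1, 33.7 and 27.9 CPM in progenitors and were at least 204-fold, 245-fold and 203-fold lower in ganglion cells. PRSS35 (ENSDARG00000100691), VASN (ENSDARG00000102565), EMP2 (ENSDARG00000044588) and PDGFRL (ENSDARG00000006456) also had no ganglion count, with bounds of 166, 115, 99.8 and 82.6. The others were cd34, a surface marker of blood vessels and fibroblasts (43.2 CPM in progenitors), the carbonic anhydrase gene CA6 (ENSDARG00000056499; 35.5 CPM) and the keratin gene krt18a.1 (20.9 CPM), with 1, 1 and 2 ganglion counts.

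Red blood cell genes were present in 3 of the 5 progenitor libraries. The globin gene hbae3 (ENSDARG00000079305, chr3:55146418-55147788) stood at 0, 2.20, 0, 0.183 and 0 CPM in ganglion replicates 1 to 5 and at 753, 1481, 0.5, 0 and 2728 CPM in progenitor replicates 1 to 5. Replicates 1, 2 and 5 of the progenitors were high and replicates 3 and 4 near 0, and the test missed the threshold (adjusted p 0.0508). The heme synthesis gene alas2 was split in the same way, at 54.8, 54.9, 0, 0 and 103 CPM in progenitors and 0 in all ganglion libraries, and did not pass the filter. Without progenitor replicates 1, 2 and 5, a choice made after these values were seen, 183 genes were called, 141 higher and 42 lower, with 126 of the 398 calls kept and 397 of 398 differences in the same direction. That direction was largely fixed in advance, because the 398 calls came from a fit that held the remaining libraries too. The ganglion transcription factor, effector, S phase and mesenchyme counts were then 3, 6, 4 and 6, and 8 photoreceptor genes were called higher.

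Other cell types were fainter. Pigment cell genes summed to 55, 457, 8.50, 0.172 and 13.6 CPM in progenitor replicates 1 to 5 and to 23, 82.8, 11.2, 3.62 and 6.34 CPM in ganglion replicates 1 to 5; of 13 listed, 6 passed the filter and 0 were called by edgeR. Of 11 listed endothelial genes 4 passed the filter, and of 11 blood and microglia genes 2 did. With all 20 libraries 0 were called by edgeR in either list. In the fit to the ganglion and progenitor groups alone 1 blood and microglia gene passed the filter, and it was called lower. Epidermal genes summed to 12.9 to 32.2 CPM in ganglion libraries and 29.6 to 52.9 CPM in progenitor libraries, with 5 of 7 past the filter and 0 called. Lens genes stayed at 0 to 1.55 CPM and 0 to 0.862 CPM. Of all 13838 genes 2.88% were called, so lists this short could hold 0 calls at that share. Over all 13838 genes, 1878 had an unadjusted p under 0.05.

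**Figure D5:**
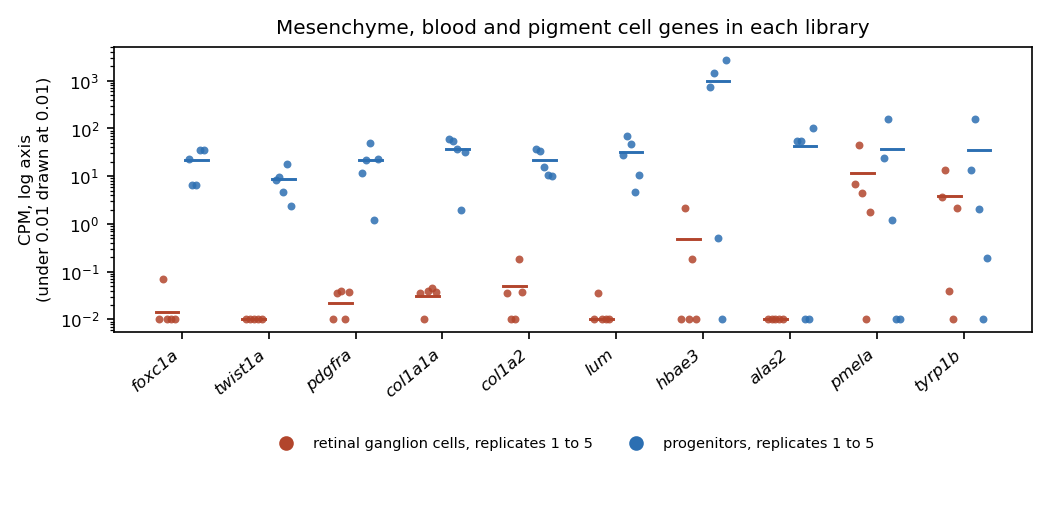
CPM of mesenchyme, blood and pigment cell genes in each library on a log axis, ganglion libraries in red and progenitor libraries in blue, with bars for means of 5; points at 0.01 are at or under that level. Mesenchyme genes from foxc1a to lum are above the ganglion libraries in all 5 progenitor libraries, whereas hbae3 and alas2 are high in 3 of them and at or near 0 in the other 2.

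The labels carry track numbers that fall in 2 ranges, and they do not say what a range stands for. Ganglion and progenitor replicates 1 and 2 fall in the first range and replicates 3 to 5 in the second. Of the other groups, amacrine and horizontal replicate 2 falls in the second range. Within the first range, of 2 libraries against 2, 374 of the 398 called genes had a value and all 374 kept their direction, but 0 genes were called by edgeR, with 1514 at an unadjusted p under 0.05. Within the second, of 3 against 3, 373 had a value, all 373 kept their direction and 233 genes were called. The 398 genes were called from these same libraries, and 347 of them did not overlap between groups. Their direction within a range was thus largely fixed in advance and is not separate evidence. With the range as a covariate 437 genes were called. Spread between replicates, as edgeR's common dispersion, was 2.3 for the amacrine and horizontal cell group, 1.2 for progenitors and 0.825 for ganglion cells. It was 1.26 when all groups shared it. The fit to the ganglion and progenitor groups alone gave 0.733. That fit had its own filter on low counts and kept 11921 genes, against 13838 with all 20 libraries. Its value thus rests on another set of genes and is not comparable with the others.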

How the data were processed

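RNA from cells sorted from pooled zebrafish retinas was amplified by a SmartSeq-2 protocol and sequenced on an Illumina instrument, per the labels' protocols. What the authors deposited is 1 table of raw counts, with genes in rows and libraries in columns. Reads were aligned with GSNAP to GRCz11 and counted with featureCounts 1.6.3 over Ensembl exons without regard to strand, per the file headers. The labels' processing notes name another build beside GRCz11, and the build in the headers was taken. Reads that hit several genes or several places were left out. Genes that overlap a neighbour or have a near-identical copy can thus be counted too low or take a neighbour's reads. Of 32612 rows, 32520 were Ensembl genes and 92 were spike-ins with 39 counts in all, which were left out. All count columns were assigned to samples by their names, with 0 left over.

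The tests used edgeR 4.0.16 (R 4.3.3). Genes were filtered with filterByExpr by group (13838 kept), scaled by TMM, and fitted with 1 mean per group over all 20 libraries (glmQLFit, glmQLFTest, 2-sided), with Benjamini-Hochberg adjustment over all genes and a threshold of 0.05. A gene near 0 in 1 group can pass the filter through other groups alone. Signs and medians of list genes past the filter thus partly follow from the filter. Standard errors are the log2 difference divided by the square root of F. Where the lower group had no count, the fold is a lower bound against 3 counts per library; where it had 1 to 3 counts, the ratio has an exact Poisson interval of 95%, which covers counting error only. The main fit was also run on simulated counts, with equal means in all groups apart from a set of changed genes. That run gave every group the same spread, unlike these data, and no result here rests on it.

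Alternatives were RLE scaling, no filter, DESeq2 1.42.0, limma 3.58.1 (voom), a fit to the ganglion and progenitor groups alone, the replicate number as a block, the track range as a covariate or within each range, and each library left out. Symbols were found for 29201 genes in a table of Ensembl identifiers; names in capitals are human-style symbols of that table. Of 393 entries on 19 gene lists, 370 were matched to 1 gene by symbol and, where the RefSeq gene table held the symbol, by its chromosome. That table did not hold isl1, zfhx3, cplx2, pde6h, tulp1a and fli1a, which were matched by symbol alone. Genes were named from these lists, from the 15 per direction with the largest differences and from the 10 per direction with the highest mean CPM in the higher group. The last 2 sets had to pass in both fits, not overlap between groups, average 10 CPM and, for the second, differ by 1 on the log2 scale. The comparison, the lists and the genes were chosen with earlier results of these data known, so their direction is not independent evidence. Some genes that these rules name are not reported here. Sequences were not used here.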

Additional observations from a re-analysis of the deposited data

Results flagged for a closer look

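In each group of 5 libraries, the level of the named genes and the summed level of the lists were examined for a library far from the other 4. Of 188 such groups, 21 were flagged because the gap to the nearest library exceeded 0.71 of the group's range; chance flags about 1 in 20. In ganglion replicate 1, genes of the ganglion programme stood high: the summed transcription factor list at 8482 CPM, atoh7 at 3858 CPM, isl1 at 1355 CPM, LDB1 at 967 CPM, dpysl2b at 213 CPM and nrp1b at 11.5 CPM. In the same library tulp1a, a photoreceptor gene, stood low at 4.31 CPM.

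Ganglion replicate 4 was far from the others for 2 transcription factor genes, eomesa at 223 CPM and irx4a at 65.2 CPM, and for cntn2 at 1.65 CPM, all high. Ganglion replicate 2 was high for the summed pigment cell genes, 82.8 CPM, and for tfap2a, 24.5 CPM, and ganglion replicate 3 for the summed lens genes, 1.55 CPM.

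Among progenitor libraries, replicate 4 was high for CA6 at 120.1 CPM, mcm2 at 1025 CPM and PRSS35 at 47.2 CPM. Replicate 2 was high for the summed pigment cell genes at 457 CPM, replicate 1 for the summed epidermal genes at 52.9 CPM and replicate 3 for mycn at 346 CPM. Replicate 5 was high for mki67 at 716 CPM and low for CTHRC1 at 5.36 CPM.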

How the results depend on the processing

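The count of 398 called genes, 275 higher and 123 lower, moved with the method. DESeq2's Wald test called 932 (608 and 324), limma voom 755 (449 and 306), the fit to the ganglion and progenitor groups alone 691 (348 lower), the first track range 0 (0 and 0), the second 233 (134 higher), and the fit without progenitor replicates 1, 2 and 5 called 183 (141 and 42). RLE scaling gave 394 and no filter 340. The median log2 difference of all genes moved by 0.11 under voom and by -0.03 under RLE and DESeq2. Leaving out 1 library at a time gave 254 to 657 genes, 161 to 403 higher and 93 to 254 lower.

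The labels number replicates alike in both groups but do not say that a number marks a shared pool. Deviations of same-numbered libraries correlated at 0.136, 0.0323, 0.0282, 0.0701 and 0.074 for numbers 1 to 5. These values are small, but all are positive, and every ganglion library correlated best with its own number. Whether a number marks a shared pool is thus not settled. The main fit treats the libraries as unpaired, and fits with the number as a block stand beside it. With the replicate block 408 genes were called, and 87 of the 102 named calls were kept; with it in the fit to the ganglion and progenitor groups alone, a fit added after the data were seen, 715 (369 lower). The replicate block gave 1 amacrine and horizontal call in either fit, and in the fit to the 2 groups alone 5 lower progenitor factors, 3 Notch, 24 S phase and 0 higher Müller glia calls.

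Counts of list members in calls moved as follows. Ganglion transcription factors, 8 with all libraries, numbered 13 under DESeq2 and voom and 4 to 10 leaving out 1 library; effectors, 13, numbered 7 to 14. Synaptic genes, 3, numbered 9 under DESeq2, 6 under voom and with the track covariate, 7 in the second range, 5 without the globin libraries and 1 to 6 leaving out 1 library. Progenitor factors called higher, 3, numbered 1 without a filter, 0 in the second range and without the globin libraries, and 0 to 3 leaving out 1; those called lower, 2, numbered 5 in the fit to the 2 groups and under voom, 4 in the second range, 1 without the globin libraries and 1 to 4 leaving out 1. Notch, 1, numbered 2 under DESeq2, in the 2-group fit and in the second range, 3 under voom, and 1 to 1 leaving out 1. S phase, 10, numbered 19 under DESeq2, 22 in the 2-group fit, 18 under voom, 6 in the second range, 4 without the globin libraries and 7 to 19 leaving out 1. Mitosis, 2, numbered 1 without a filter, 0 in the second range and without the globin libraries, and 0 to 2 leaving out 1. Amacrine and horizontal genes, 2, numbered 4 under DESeq2, 1 in the second range and 1 to 3 leaving out 1; the bipolar call was lost in the second range and without the globin libraries (0) and numbered 1 to 2 leaving out 1; the Müller glia call was lost (0) under RLE, without a filter, in the 2-group fit and in the second range, with 0 to 1 leaving out 1. Neurogenic and exit genes, 7, numbered 1 without the globin libraries and 5 to 7 leaving out 1; photoreceptor genes, 7, numbered 6 to 8, and mesenchyme genes, 8, numbered 7 to 11. Without the globin libraries the ganglion factor count was 3 and the effector count 6. In the first track range, 2 against 2, every list had 0 calls. The causes of these moves were not tested.

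Of 142 named genes, 102 were called, 94 of them also in the fit to the ganglion and progenitor groups alone and 68 in all 20 leave-one-out fits. Directions reversed in 2 cases among named genes, both uncalled: rcvrna, at -0.0099 in the first track range, and hbae3, at 0.92 without the globin libraries. Depth, at 21633460 counts or more per library, limits genes with under 3 counts per library only in counting error; the spread among pools of 500 sorted cells was not separated from amplification.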

Other observations

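Gene families below were picked after their values were seen, so they are descriptions. Their counts of calls stand beside 1.99% higher and 0.889% lower among all genes tested. The table lists 2 genes as STMN1: the one called higher in ganglion cells is given above, and the other (ENSDARG00000004169) stood at 878, 1048, 1375, 1013 and 1087 CPM in ganglion replicates 1 to 5 and at 2379, 1552, 2130.4, 1889 and 1944 CPM in progenitor replicates 1 to 5. Every ganglion library of this second gene lay below every progenitor library (log2 difference -0.87, SE 0.24, adjusted p 0.0525), but the gene did not pass the threshold. Of 6 stathmin genes past the filter, 5 had a positive difference and 2 were called higher.

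In the MYC family, beside mycn, which was lower, the gene listed as MYCL (ENSDARG00000034956) stood at 174, 122, 169.8, 129.9 and 105 CPM in ganglion libraries and 35.6, 28.4, 31, 21 and 18.3 CPM in progenitor libraries. The groups did not overlap (log2 difference 2.38, SE 0.32, adjusted p 0.000131), and the call was kept in all 20 leave-one-out fits. Of 5 family members past the filter 4 were positive, 2 were called higher and 1 lower.

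Among subunits of the proton pump that fills synaptic vesicles and acidifies lysosomes, 22 of 23 genes passed the filter, 18 were positive and 3 were called higher. A gene for the membrane ring of the pump listed as ATP6V0C (ENSDARG00000036577) averaged 96.3 ± 18.3 against 15.9 ± 9.10 CPM (SD, n = 5 each; log2 difference 2.60, SE 0.32, adjusted p 4.84e-05). A second gene of the same symbol (ENSDARG00000057853) averaged 89.4 ± 25.1 against 94.9 ± 28.4 CPM (log2 difference -0.09, SE 0.26, adjusted p 0.982). The subunit gene atpv0e2 averaged 76.1 ± 9.13 against 16.3 ± 4.58 CPM (log2 difference 2.22, SE 0.31, adjusted p 0.000167).

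All 6 dihydropyrimidinase-like genes, the family of dpysl2b, were positive and 4 were called higher, among them DPYSL5 (ENSDARG00000011141) at 156 ± 43.9 against 28.9 ± 14.5 CPM (SD, n = 5 each; log2 difference 2.44, SE 0.34, adjusted p 0.000174). Clustered protocadherins, adhesion proteins that give neurons a surface identity, were positive in all 23 of 35 genes that passed the filter, and 7 were called higher. Members near 0 in progenitors could pass the filter only through other libraries, which makes a positive sign likely in advance. These genes share exons within a cluster (the span of pcdh1g26 overlaps 17 other genes), and reads that hit several genes were left out. The counts of these genes are thus uncertain, and the genes are not separate observations.

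On the lower side, 9 of 9 genes for core proteins of small nucleolar ribonucleoproteins, which modify ribosomal RNA, were negative and 5 were called, with FBL, fibrillarin (ENSDARG00000053912), at 85.6 ± 14.6 against 268 ± 96.1 CPM (SD, n = 5 each; log2 difference -1.65, SE 0.30, adjusted p 0.00237). Both tested subunits of the histone chaperone FACT were called lower, SUPT16H (ENSDARG00000079949) at 44 ± 14.2 against 142 ± 27.6 CPM and SSRP1 (ENSDARG00000037397) at 187 ± 19.9 against 369.6 ± 41.8 CPM. Of 7 importin genes past the filter 3 were called lower, with IPO7 (ENSDARG00000035751) at 118 ± 30.2 against 319.7 ± 72 CPM (log2 difference -1.44, SE 0.21, adjusted p 0.000271). Globin genes were negative in all 7 of 17 that passed the filter, and 3 were called lower. A gene near 0 in ganglion cells can pass the filter only through other libraries, so a negative sign was likely in advance. The globin gene hbae3 averaged 0.477 ± 0.968 against 993 ± 1148 CPM, and progenitor replicates 3 and 4 were at or near 0.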
